A study of Mus musculus with 96 samples.

Results

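The stem-loops mir-137 (MI0000163), mir-138-1 (MI0000722), mir-138-2 (MI0000164), mir-218-1 (MI0000700) and mir-218-2 (MI0000701) were taken from the deposited tables by their miRBase IDs, which makes 5 of 1187 listed stem-loops (1033 of them with any count). All 5 passed the filter on low counts, as did 434 stem-loops in all. The tables give no names, so the identity was checked by length alone, which cannot tell mir-218-1 from mir-218-2. The stem-loop lengths implied by the ratio of counts to FPKM were 73, 99, 71, 110 and 110 bases, equal to the RefSeq hairpins of Mir137, Mir138-1, Mir138-2, Mir218-1 and Mir218-2.

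The libraries hold small RNA of cerebella from female and male C57BL/6 mice, aged 10 or 6 months. Mice labelled Q20, Q50, Q92 and Q140 were heterozygous, with 1 endogenous Htt allele and 1 Htt allele into which human HTT exon 1 with 20, 50, 92 or 140 CAG repeats had been knocked in (alleles tm2Mem, tm3Mem, tm4Mem and tm1Mfc in that order), so that all cells carried the allele. Wild type (WT) mice came from the Q20 line and from the Q50 line. There were 96 libraries, 8 for each of the 6 genotype groups at each age (4 female and 4 male), each from a separate animal per the study's methods. Controls were the Q20 and both WT groups, as in the study. Q92 and Q140 mice had no WT littermates here, so line and CAG length cannot be told apart in their comparisons. On housing the sources differ. The labels give Q92 and Q140 mice as caged with their own genotype and Q20 and Q50 mice as caged with WT mice too, whereas the study's methods describe cages of mixed HET and WT mice for all lines. Cell type markers could not be looked up among the unnamed IDs, so the tissue label was not checked.

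MicroRNAs are cut from hairpin precursors. A short mature strand enters an Argonaute protein, and its seed, bases 2 to 8, pairs with sites in messenger RNAs that are then repressed. All 3 families are known from neurons. miR-137 acts on neuronal maturation and on proteins of synaptic vesicle release, miR-138 limits the size of dendritic spines in cultured rat neurons, and miR-218 is abundant in neurons, motor neurons above all, where its loss in mice alters excitability.

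The mature strands are shown because they decide which counts can be told apart, with the seed in capitals (RefSeq, GRCm38.p6).
miR-137-3p: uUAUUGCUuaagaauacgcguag
miR-137-5p: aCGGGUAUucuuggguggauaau
miR-138-5p: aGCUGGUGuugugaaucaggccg
miR-138-1-3p: cGGCUACUucacaacaccaggg
miR-138-2-3p: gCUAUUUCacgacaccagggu
miR-218-5p: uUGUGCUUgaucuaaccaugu
miR-218-1-3p: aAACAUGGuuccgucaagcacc
miR-218-2-3p: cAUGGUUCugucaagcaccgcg

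miR-138-5p lay in both mir-138 hairpins, and miR-218-5p in both mir-218 hairpins, and neither was found in any other of 1005 reference hairpins. Each 3p strand lay in 1 hairpin. The 3p strands of a pair shared at most 9 bases in a row for mir-138 and 10 for mir-218, and their seeds differed. No seed was shared between the 3 families. Among other reference miRNAs, mmu-miR-7002-3p had the seed of miR-218-5p and mmu-miR-496b that of miR-218-1-3p.

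The 5 hairpins lay on 5 chromosomes, all on the plus strand of GRCm38. mir-137 was at chr3:118433857-118433929, in an exon of the non-coding transcript Gm26871. mir-138-1 was at chr9:122682876-122682974, in an exon of the pseudogene Gm47135, and mir-138-2 at chr8:94324311-94324381, in an exon of the lincRNA C78859. mir-218-1 was at chr5:48223942-48224051, in an intron of Slit2, and mir-218-2 at chr11:35616816-35616925, in an intron of Slit3, which both encode secreted axon guidance ligands.

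The counts of the paired loci were shared out by the authors' processing. mir-137 had whole counts in 96 of 96 libraries, whereas each of mir-138-1, mir-138-2, mir-218-1 and mir-218-2 was whole in 0 of 96, within a tolerance of 0.01. The sum of each pair was whole in 96 of 96. Reads of the common 5p strand were thus divided between the loci of a pair, and the level of a single locus depends on how this was done. The tables count reads per hairpin, so the 5p and 3p strands were not measured separately.

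Library totals ran from 5435778 to 7934044 estimated counts. As in the study, libraries were judged by Z.k, a standardized measure of how close a library lies to the others of its age after variance stabilization. Those under -5 were left out, namely Q20 6 months female replicate 2 (Z.k -6.37) and Q92 6 months male replicate 4 (Z.k -5.97), which left 48 libraries at 10 months and 46 at 6 months. Library names carry an undefined L tag (1 or 8 at 10 months, 2, 3 or 4 at 6 months), which was used as the batch term within each age. No tag crossed the ages, so age and tag cannot be told apart.

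Per length of hairpin, mir-138-2 had the highest level and mir-137 the lowest. Over the 94 libraries the median FPKM was 31740 for mir-138-2, 5625 for mir-218-2, 2497 for mir-138-1, 545 for mir-218-1 and 203 for mir-137. This order held in 93 of 94 libraries. The exception was WT 10 months female replicate 3 of the Q20 line, where mir-138-1 stood above mir-218-2. The ranges of mir-218-2 (3037 to 7420 FPKM) and mir-138-1 (1864 to 4926 FPKM) overlapped, as did those of mir-218-1 (220 to 1846 FPKM) and mir-137 (79.9 to 595 FPKM), whereas mir-138-2 (20590 to 59850 FPKM) lay above all others. Median counts per library ran from 99 for mir-137, where counting error alone gives a coefficient of variation of 10.1%, to 15110 for mir-138-2, where it gives 0.814%.

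**Figure D1:**
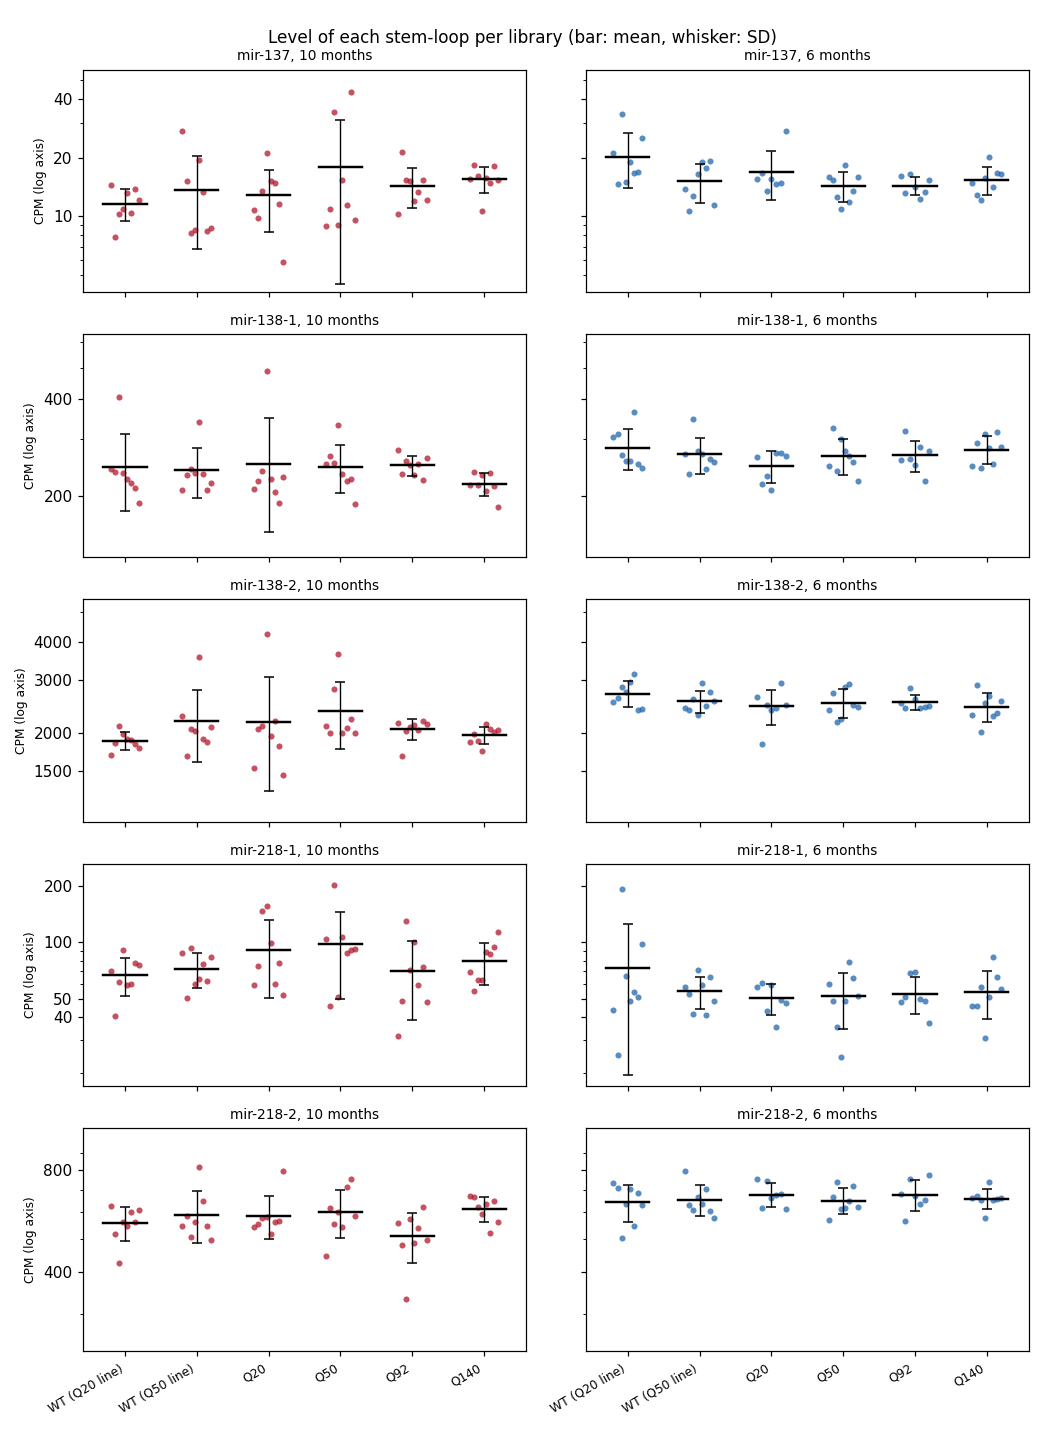
Level of each stem-loop as CPM (counts scaled to the library total, log axis) in each of the 94 libraries used, by genotype, at 10 months (left) and 6 months (right), with points for libraries, bars for means and whiskers for SD. Genotypes overlap in every panel, and mir-138-2 has 3 high libraries at 10 months, at 3559, 3650 and 4249 CPM.

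The first question was whether any of the 5 stem-loops differed with the CAG length of Htt. None did at the threshold of 0.05. In 18 comparisons with genotype or CAG length, edgeR's quasi-likelihood test with Benjamini-Hochberg adjustment over 434 stem-loops called 0 of 90 member tests, and 0 had an unadjusted p under 0.05. DESeq2 and limma also called 0. In Q140 against control mice the share of all tested stem-loops that was called was 5.07% with the ages combined, and 2.30% at 10 months and likewise 2.30% at 6 months. In Q50 mice it was 3.69% at 10 months, and 0% at 6 months and with the ages combined. In Q92 mice it was 0% at 10 months, at 6 months and combined. An unadjusted p under 0.05 (edgeR) was held by 47 of 434 stem-loops at 10 months and 22 at 6 months in Q92 mice. At the same ages the counts were 47 and 86 in Q140 mice and 71 and 13 in Q50 mice. Over both ages the median size of the Q140 change was 0.08 (log2) for the 5 members and 0.07 for all tested stem-loops. The study itself lists Mir218 among microRNAs associated with CAG length in opposite directions in striatum and cerebellum (FDR under 0.05 in each). The libraries used here are those of the study's second series, which lacked the mice with its longest CAG repeat.

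mir-137, the member with the fewest counts, had wide intervals at 10 months. There its lowest, median and highest levels were 10.7, 15.6 and 18.3 CPM in Q140 mice, against 5.83, 11.9 and 27.3 CPM in controls. Of the 8 Q140 libraries, 7 lay above the control mean and 8 within the control range. The fitted log2 change was 0.33 with SE 0.22 (adjusted p = 0.64, edgeR), with an approximate 95% interval of -0.09 to 0.75. At 6 months the levels were 12.1, 15.3 and 20.2 CPM in Q140 mice, against 10.6, 16.6 and 33.5 CPM in controls, and the log2 change was -0.16 with SE 0.13 (adjusted p = 0.55, edgeR). In Q92 mice the log2 change was 0.23 (SE 0.22, adjusted p = 0.72, edgeR) at 10 months and -0.28 (SE 0.14, adjusted p = 0.86, edgeR) at 6 months. The latter had the lowest unadjusted p of the 90 member tests, 0.051 (edgeR). Its approximate 95% interval was -0.55 to -0.01. Of the 7 Q92 libraries at 6 months, 0 lay above the control mean and 7 within the control range.

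In Q50 mice mir-137 averaged 17.9 ± 13.3 CPM at 10 months (SD, n = 8) and controls averaged 12.7 ± 4.77 CPM (SD, n = 24). The Q50 mean rested on 2 libraries above the control range, 43.5 CPM in male replicate 3 and 34.2 CPM in female replicate 3, and the Q50 median of 11.1 CPM lay below the control median of 11.9 CPM. The log2 change was 0.42 with SE 0.21 (adjusted p = 0.31, edgeR), and 0.05 without male replicate 3. The Q50 change differed between the ages by 0.63 on the log2 scale (SE 0.26, adjusted p = 0.21, edgeR interaction). In the same test the Q92 change differed by 0.50 (SE 0.27, adjusted p = 0.58) and the Q140 change by 0.50 (SE 0.26, adjusted p = 0.62). These values share their controls and are not independent. From 6 to 10 months the mean log2 level differed by -0.77, -0.44 and -0.26 in the control groups. In Q50, Q92 and Q140 mice it differed by 0.06, -0.03 and 0.02.

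mir-138-2, which held most of the mir-138 counts, had the narrowest intervals at 6 months. There its lowest, median and highest levels were 2015, 2423 and 2872 CPM in Q140 mice, against 1848, 2536 and 3124 CPM in controls, a log2 change of 0.02 with SE 0.05 and an interval of -0.07 to 0.12. At 10 months they were 1752, 2005 and 2141 CPM in Q140 mice, against 1462, 1938 and 4249 CPM in controls, a log2 change of -0.04 with SE 0.10. All Q140 libraries lay within the control range at both ages. In Q92 mice the medians were 2112 CPM at 10 months and 2461 CPM at 6 months, and in Q50 mice 2097 and 2454 CPM at the same ages. The log2 change in these groups ran from -0.06 to 0.12.

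mir-138-1 shares the mature 5p strand of mir-138-2 and held the smaller part of the pair's counts. In Q140 mice at 10 months its levels were 185, 216 and 236 CPM, against 189, 228 and 488 CPM in controls. Of the 8 Q140 libraries 0 lay above the control mean of 245.5 CPM and 7 lay within the control range. That mean included control libraries at 488, 404 and 340 CPM, and the highest Q140 level was above the control median. The log2 change was -0.14 with SE 0.09 (adjusted p = 0.65, edgeR). At 6 months the log2 change was 0.12 with SE 0.08 (adjusted p = 0.41, edgeR), and the difference between the ages was -0.25 with SE 0.13 (adjusted p = 0.61, edgeR interaction).

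mir-218-2, the more abundant mir-218 locus, stood at 521, 628 and 669 CPM in Q140 mice at 10 months and at 426, 562 and 816 CPM in controls. Of the 8 Q140 libraries 6 lay above the control mean and 8 within the control range. The log2 change was 0.12 with SE 0.07 (adjusted p = 0.57, edgeR), and over both ages 0.08 with SE 0.05 (adjusted p = 0.33). Within tags at 10 months it was 0.31 with SE 0.11 in tag 1 (3 Q140 and 14 control libraries, adjusted p = 0.63, edgeR). In tag 8 it was 0.13 with SE 0.06 (5 Q140 and 10 control libraries, adjusted p = 0.57, edgeR). In tags 2 and 3 at 6 months it was 0.04 with SE 0.08 and -0.02 with SE 0.10. In Q92 mice at 10 months it was -0.13 with SE 0.07 (adjusted p = 0.48), with 1 of 8 libraries above the control mean and 1, at 334 CPM, below the control range. For the mir-218 pair summed it was -0.14 with SE 0.06 (unadjusted p = 0.029, adjusted p = 0.34, edgeR).

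mir-218-1, in Slit2, had the highest coefficient of variation of the 5 with both ages pooled (94 libraries), 45.2%. Counting error at its median count was 4.94%. Within single ages the coefficient for mir-137 was 46.2% at 10 months and 26.3% at 6 months. That for mir-218-1 was 39.7% and 44.6% at the same ages. At 10 months its levels were 54.9, 78.1 and 113 CPM in Q140 mice, against 40.3, 72.8 and 158 CPM in controls, a log2 change of -0.02 with SE 0.19. At 6 months they were 30.9, 53.5 and 83.6 CPM in Q140 mice, against 25.0, 52.7 and 194 CPM in controls, a log2 change of -0.21 with SE 0.21. The approximate 95% intervals were -0.40 to 0.36 at 10 months and -0.62 to 0.21 at 6 months. In Q50 mice it was 0.24 with SE 0.19 at 10 months and -0.15 with SE 0.21 at 6 months, and in Q92 mice -0.17 with SE 0.20 and -0.05 with SE 0.22 at the same ages. Single libraries moved these values. Without the control library at 194 CPM, WT 6 months female replicate 3 of the Q20 line, the 6-month change was -0.07 in Q140 mice and 0.18 in Q92 mice, and without Q50 10 months female replicate 3 the Q50 change at 10 months was 0.06, none of them called.

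**Figure D2:**
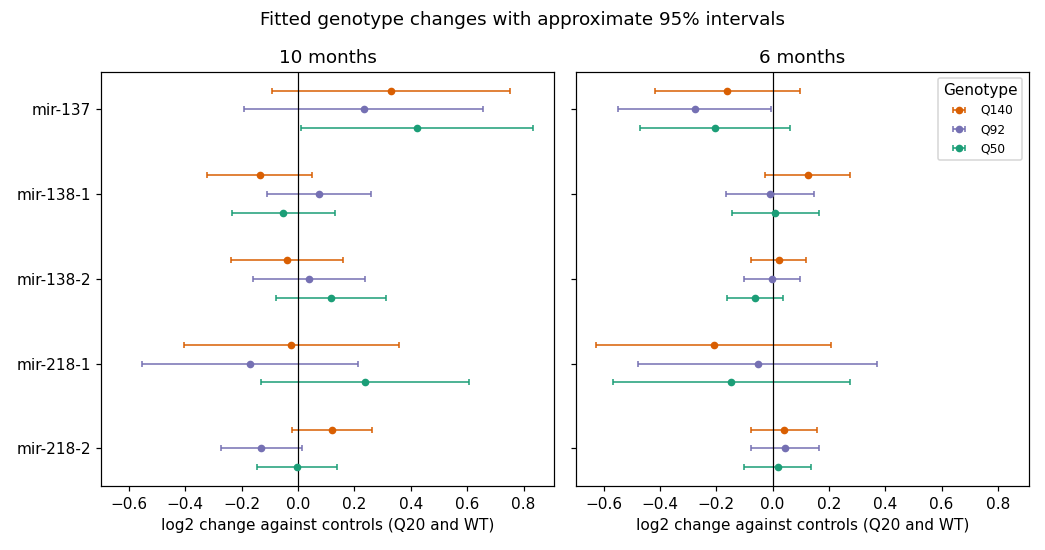
Fitted log2 change of each stem-loop in Q140, Q92 and Q50 mice against controls at 10 months (left) and 6 months (right), with approximate 95% intervals. Those of mir-138-2 at 6 months are the narrowest, and those of mir-218-1 and of mir-137 at 10 months are wide, up to 0.84 for mir-137 in Q50 mice.

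With CAG length as a number (WT set to 7), changes per 100 repeats over both ages ran from -0.10 for mir-218-1 to 0.04 for mir-218-2, with SE of 0.03 to 0.10 and no call. The shares called among all tested stem-loops were 0.461% at 10 months, 2.76% at 6 months and 3.0% with the ages combined. Against WT littermates, the only comparisons within a line, no member was called in Q50 or in Q20 mice. There 0% of tested stem-loops were called in Q50 mice at either age or over both, and in Q20 mice 0% at either age and 1.15% over both. Among these littermate comparisons the lowest p was that of mir-218-1 in Q20 mice at 6 months, with a log2 change of -0.48 (SE 0.25, adjusted p = 0.55, edgeR). At 10 months the value was 0.40 (SE 0.23, adjusted p = 0.81, edgeR). Without the WT library at 194 CPM (female replicate 3) the 6-month value was -0.03, and without Q20 female replicate 4 the 10-month value was 0.22. No genotype effect was called as different between the ages (0 of 15 member tests, 2 with an unadjusted p under 0.05, and 0% of all tested stem-loops in Q140, Q92 and Q50 mice).

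Within single L tags, 0 of 55 member tests of Q140, Q92 or Q50 against controls were called, and 5 had an unadjusted p under 0.05. The lowest was mir-138-1 in Q92 mice in tag 8 at 10 months, with a log2 change of 0.16 (SE 0.05, adjusted p = 0.40, edgeR) and with -0.05 (SE 0.20) in tag 1.

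The second comparison set 10 against 6 months over all genotypes. Here 4 of 5 members were called, in a comparison in which 34.6% of all tested stem-loops were called, 15.9% as higher and 18.7% as lower at 10 months. mir-138-1, mir-138-2 and mir-218-2 were lower at 10 months, and mir-218-1 was higher. The median size of the change was 0.19 (log2) for the 5 members and 0.08 for all tested stem-loops. In brain tissue, fewer cells of a type and less RNA per cell cannot be told apart. Neither can age and L tag. The age fit had no tag term, so its SE and p treat libraries of a tag as independent. Genotype groups of an age shared its tags, so they are not independent repeats of the age result.

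mir-138-2 stood at 1462, 2030 and 4249 CPM at 10 months (lowest, median, highest, n = 48), against 1848, 2474 and 3124 CPM at 6 months (n = 46). Of the 10-month libraries 44 of 48 lay below the 6-month median. It fell by 0.27 on the log2 scale (SE 0.04, adjusted p = 2.2e-07, edgeR), or by 17.0%, and the mean log2 level was lower in 6 of 6 genotype groups, with differences of -0.51 to -0.12.

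mir-138-1 had levels of 185, 232 and 488 CPM at 10 months, against 208, 265 and 363 CPM at 6 months. It was lower in 6 of 6 genotype groups and fell by 0.16 on the log2 scale (SE 0.04, adjusted p = 0.0039, edgeR). For the mir-138 pair summed, which does not depend on how shared reads were split, the change was -0.25 with SE 0.04 (adjusted p = 5.0e-07, edgeR).

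mir-218-2 had levels of 334, 563 and 816 CPM at 10 months, against 503, 658 and 794 CPM at 6 months, and 42 of 48 libraries lay below the 6-month median. It fell by 0.19 on the log2 scale (SE 0.03, adjusted p = 5.0e-06, edgeR), and was lower in 6 of 6 genotype groups. mir-218-1 went the other way, at 31.6, 74.3 and 203 CPM at 10 months, against 24.2, 51.1 and 194 CPM at 6 months. It rose by 0.50 on the log2 scale (SE 0.10, adjusted p = 7.2e-05, edgeR), or by 41.7%, was higher in 6 of 6 genotype groups, and 42 of 48 libraries lay above the 6-month median. The ranges of the ages overlapped for every member. The levels of both mir-218 loci depend on how shared reads were split, and their share was not tested between the ages.

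The mir-218 pair summed followed its larger locus. Its levels were 464, 648 and 880 CPM at 10 months, against 601, 716 and 852 CPM at 6 months, a change of -0.11 with SE 0.03 (adjusted p = 0.0011, edgeR). Among the 432 rows of the table with summed pairs, 33.8% were called between the ages and 5.09% in Q140 mice over both ages, where neither pair was called (mir-138 pair -0.01 with SE 0.06, mir-218 pair 0.06 with SE 0.04, adjusted p = 0.93 and 0.33, edgeR).

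mir-137 was not called between the ages. Its levels were 5.83, 13.3 and 43.5 CPM at 10 months, against 10.6, 15.5 and 33.5 CPM at 6 months, with a log2 change of -0.16 (SE 0.09, adjusted p = 0.17, edgeR). The difference was -0.77 in WT mice of the Q20 line, -0.26 in WT mice of the Q50 line, -0.44 in Q20, 0.06 in Q50, -0.03 in Q92 and 0.02 in Q140 mice. limma on log2(FPKM + 1) called it, at -0.23 (adjusted p = 0.043), as did edgeR without Q50 10 months male replicate 3, at -0.22 (adjusted p = 0.031).

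**Figure D3:**
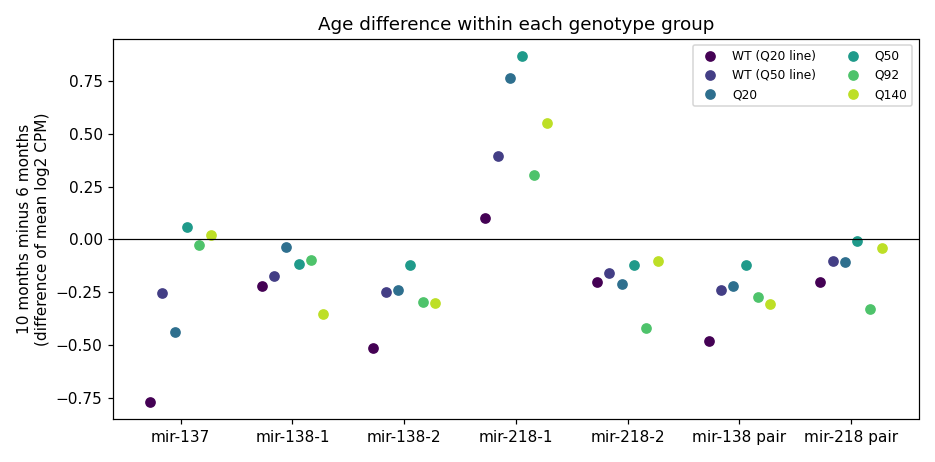
Difference in mean log2 CPM between 10 and 6 months for each stem-loop and each summed pair, with 1 point per genotype group. mir-138-1, mir-138-2 and mir-218-2 lie below 0 and mir-218-1 above 0 in all 6 groups, whereas mir-137 runs from -0.77 to 0.06.

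Levels also differed between the tags of an age. For mir-138-2 the median was 1996 CPM in tag 1 and 2040 CPM in tag 8 at 10 months, against 2316, 2474 and 2732 CPM in tags 2, 3 and 4 at 6 months, so that tags of 1 age also differed from each other. For mir-218-2 it was 586 and 559 CPM at 10 months, against 654, 673 and 643 CPM at 6 months. For mir-218-1 it was 63.3 CPM in tag 1 and 80.6 CPM in tag 8 at 10 months, against 68.5, 48.7 and 50.4 CPM in tags 2, 3 and 4, so tag 2 at 6 months stood above tag 1 at 10 months.

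**Figure D4:**
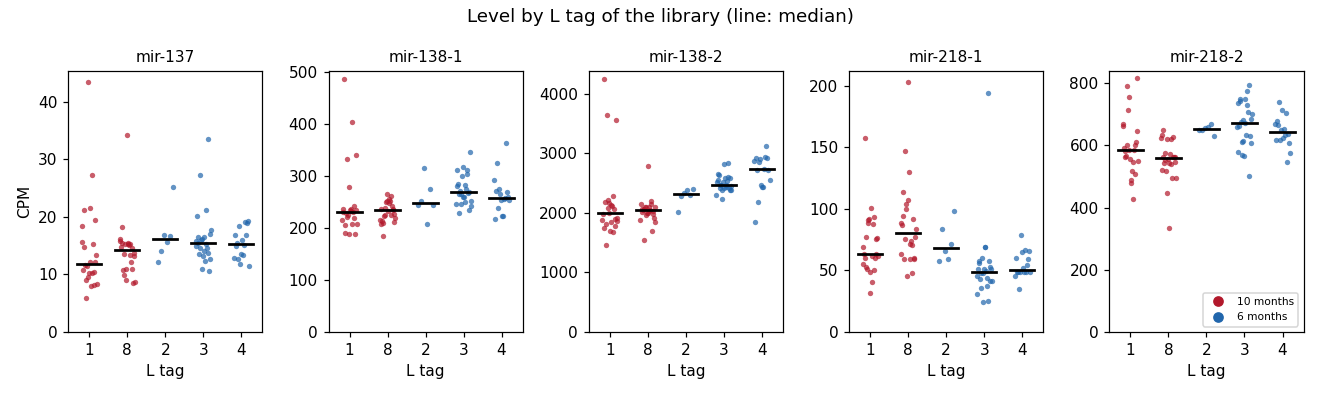
Level of each stem-loop (CPM, axes from 0) by L tag, with tags 1 and 8 at 10 months (left) and tags 2, 3 and 4 at 6 months (right), points for libraries and lines for medians. The medians of mir-138-2 are 1996 and 2040 CPM in the 10-month tags, below the 2316 to 2732 CPM of the 6-month tags.

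The 3 highest mir-138-2 libraries at 10 months bore neighbouring library names. They were Q20 female replicate 4 at 4249 CPM, Q50 female replicate 4 at 3650 CPM and WT male replicate 1 of the Q50 line at 3559 CPM, named LB3, LB2 and LB1 of tag 1. The other 21 libraries of tag 1, numbered from LB16 to LB36, ran from 1462 to 2282 CPM. The 24 libraries of tag 8 ran from 1536 to 2792 CPM, with LB1, LB2 and LB3 of that tag at 2050, 1700 and 1536 CPM. No source used here states what the LB number is, and its part in the levels was not tested. Of the 3 highest libraries, 2 were controls. Without them, an alternative chosen after the data were seen, the age change was -0.33 for mir-138-2 (SE 0.03) and -0.20 for mir-138-1 (SE 0.04), and the Q140 change at 10 months was 0.03 for mir-138-2 (SE 0.05), with no change of call.

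Females and males were compared over both ages. No member was called by edgeR (0 of 5, 1 with an unadjusted p under 0.05), DESeq2 or limma, in a comparison in which 8.29% of all tested stem-loops were. The closest was mir-138-1, with lowest, median and highest levels of 208, 238 and 488 CPM in females and 185, 223 and 340 CPM in males at 10 months. At 6 months it had 217, 265 and 347 CPM in females and 208, 265 and 363 CPM in males. Its log2 difference, female over male, was 0.13 (SE 0.05, adjusted p = 0.066, edgeR), against 0.01 (SE 0.04) for mir-138-2.

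The share of the second locus within a pair needs no scaling between libraries, but it depends on how the shared reads were split. mir-138-2 held 89.6% ± 1.44 of the mir-138 counts at 10 months (SD, n = 48) and 90.4% ± 1.07 at 6 months (SD, n = 46). mir-218-2 held 87.8% ± 4.80 of the mir-218 counts at 10 months and 92.1% ± 3.59 at 6 months. The log2 ratio of the loci (1 count added to each) was compared between Q140, Q92 or Q50 mice and controls at each age in 12 exact two-sided permutation tests, and none passed after adjustment over the 12. These tests had no term for the L tag.

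The lowest p was that of the mir-138 ratio in Q140 mice at 6 months. The mean log2 ratio was 3.13 ± 0.14 in Q140 mice (SD, n = 8) and 3.27 ± 0.17 in controls (SD, n = 23), a difference of -0.14 (exact permutation p = 0.043, adjusted p = 0.51). Within tags it was -0.26 in tag 2 and -0.06 in tag 3. At 10 months the difference was 0.10 (exact permutation p = 0.29), with -0.04 in tag 1 and 0.19 in tag 8. For the mir-218 ratio the differences ran from -0.23 in Q50 mice at 10 months to 0.16 in Q50 mice at 6 months (exact permutation p = 0.34 and 0.55). Leaving out 1 library at a time, the Q50 difference ran from -0.37 to -0.04 at 10 months and from 0.02 to 0.25 at 6 months.

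**Figure D5:**
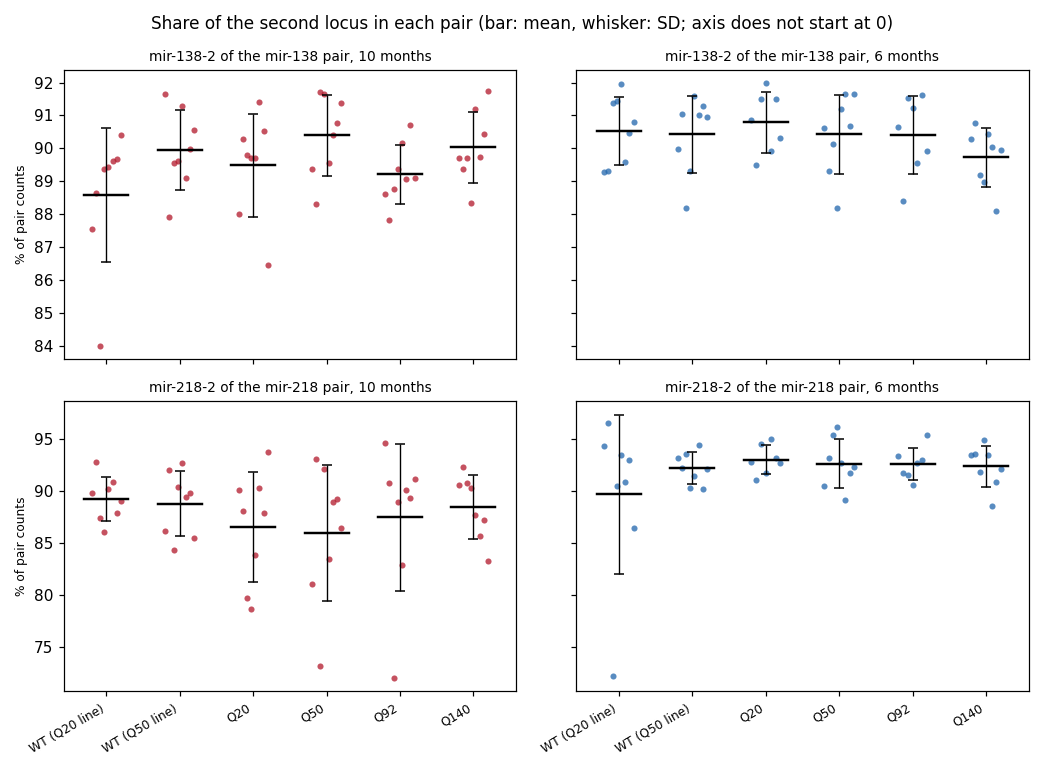
Share of the second locus in the counts of its pair (%, axis not from 0) in each library by genotype, at 10 months (left) and 6 months (right), with bars for means and whiskers for SD. mir-138-2 stays near 90% throughout, and mir-218-2 averages 87.8% at 10 months and 92.1% at 6 months.

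Across the 12 means of genotype and age, with the mean of each age subtracted, the stem-loops most like each member among 429 others were found by Pearson r, as a description. They were MI0000723 (r = 0.74) and MI0005004 (0.68) for mir-137, MI0022266 (0.90) and MI0014031 (0.77) for mir-138-1, MI0004692 (0.96) and MI0004220 (0.92) for mir-138-2, MI0000799 (0.92) and MI0005472 (0.90) for mir-218-1, and MI0004702 (0.80) and MI0018008 (0.80) for mir-218-2. These were the highest r among 429 over only 12 means, and how high they would be by chance was not tested. Spearman rho ran from 0.45 (MI0005004) to 0.97 (MI0004692), and mean levels from 3.19 CPM (MI0018008) to 5120 CPM (MI0000723). The means of an age share the subtracted mean, and each group's libraries give the values of every stem-loop. The IDs are given without names because no table used here pairs them.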

How the data were processed

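Per the study's methods, single-end reads were aligned to mm10 with STAR and counted with HTSeq. The submitters' notes also list CASAVA 1.8.2. The authors deposited estimated counts per miRBase stem-loop, not normalized, and FPKM scaled by library total and hairpin length. No source used here names the program that split shared reads. Estimated counts were rounded and tested with edgeR 4.0.16 (R 4.3.3, TMM, quasi-likelihood, Benjamini-Hochberg at 0.05) on stem-loops that reached 10 counts in 8 or more 10-month libraries and in 8 or more 6-month libraries. Each age was fitted with genotype, sex and L tag. Both ages were combined by summed z, and the age comparison used genotype and sex. DESeq2 1.42.0 and limma 3.58.1 (pseudocounts 1 and 0.1 on FPKM) were alternatives. The fit was tested on simulated data. CPM are counts scaled to the library total. A count of 0 allows up to 0.552 CPM (3 counts) in the smallest library, for counting error only, since reads had no molecular identifiers.

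All 5 members were named in every comparison, and for each member the 2 stem-loops with the highest Pearson r. Members, lists and tests were chosen with earlier results of these data known. Planned lists of other neuronal and cell type miRNAs, written by name, were not run because the IDs could not be matched to names.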

Additional observations from a re-analysis of the deposited data

Results flagged for a closer look

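Sets of libraries were formed from 5 stem-loops in 12 groups of genotype and age, so they share libraries and are not independent. Of these 60 sets, 14 held a library far from the rest by Dixon's test, where chance in independent sets gives about 3. For mir-137 these were Q20 6 months male replicate 4 at 27.3 CPM (others 13.6 to 16.8), Q92 10 months female replicate 2 at 21.5 CPM (others 10.3 to 15.3) and Q140 10 months female replicate 4 at 10.7 CPM (others 14.8 to 18.3). For mir-138-1 they were WT 10 months female replicate 3 of the Q20 line at 404 CPM, WT 6 months female replicate 3 of the Q50 line at 347 CPM, WT 10 months male replicate 1 of the Q50 line at 340 CPM and Q20 10 months female replicate 4 at 488 CPM, all above their groups. For mir-138-2 they were WT 10 months male replicate 1 of the Q50 line at 3559 CPM and Q20 10 months female replicate 4 at 4249 CPM, which were also high in mir-138-1, and Q92 10 months female replicate 2 at 1689 CPM (others 2028 to 2194). For mir-218-1 they were WT 6 months female replicate 3 of the Q20 line at 194 CPM (Z.k -4.53) and Q50 10 months female replicate 3 at 203 CPM (Z.k -4.60). For mir-218-2 they were WT 10 months male replicate 1 of the Q50 line at 816 CPM and Q20 10 months male replicate 4 at 792 CPM (others 518 to 583). The part of library quality in these values was not tested.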

How the results depend on the processing

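No genotype, CAG length or littermate call was gained in 1215 member fits under other settings or in 8460 fits without 1 library (lowest adjusted p 0.095 and 0.16). The 4 age calls were kept in all 11 other settings and in all 94 fits without 1 library. None of these fits can tell age from L tag. The sex comparison called 1 member, mir-138-1, with a mean count of at least 50 (adjusted p = 0.045), and without 1 library the count ran from 0 to 1, with 1 called without Q140 6m male replicate 3, WT Q20 line 6m male replicate 2 or WT Q50 line 10m male replicate 1. The cause was not tested. Replicate numbers did not pair the samples (mean r of deviations 0.029 for same-numbered and -0.010 for other libraries), and the replicate block changed no member call, with mir-138-2 at -0.27 between the ages, but gave 4 calls over all stem-loops in Q140 mice at 10 months and 1 at 6 months, against 10 each. Over all tested stem-loops, calls in Q140 mice over both ages ran from 10 with WT alone as controls to 42 with DESeq2 on outlier-replaced counts, against 22, those of Q140 at 10 months from 1 without libraries of Z.k under -3 to 12, against 10, those at 6 months from 1 to 27, against 10, and those of Q50 at 10 months from 0 with limma to 25, against 16. CAG length calls ran from 7 to 23 over both ages, against 13, from 1 to 4 at 10 months, against 2, and from 1 to 14 at 6 months, against 12. Calls of Q20 against WT littermates ran from 2 to 6, against 5, and those of female against male from 22 to 49, against 36. Leaving out libraries of Z.k under -3 and leaving out LB1 to LB3 of tag 1 were chosen after the data were seen. Low counts limit mir-137 most.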
